A study of Homo sapiens with 8 samples.

Results

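The deposited table of an RNA-seq comparison in K562 cells lists 1950 genes, and 140 of them carry the name of a pseudogene. A row was counted as a named pseudogene when its gene name had no hyphen, held at least 5 characters and ended in P and 1 to 3 digits. The pattern took 184 names. GENCODE release 29 types 44 of these as protein coding, and they were left out. K562 is an established line of human chronic myeloid leukaemia cells. In 4 libraries the cells had received 80 µg/mL of an extract of Caulis Polygoni Multiflori over 3 days (extract 1 to 4), and in 4 libraries they had been grown without it (control 2 to 5, as numbered by the submitters). The time in culture of the control cells is not given, and nothing states that the 4 libraries of a group are separate cultures, so p-values here measure library-to-library spread, part of which may be technical. The table is a selection: every gene in it has a p-value of at most 0.05 and a change of at least 1.5-fold in the authors' own test. A difference between the groups in a listed gene is therefore what put the gene in the table. The values carry no stated unit and the depth of the libraries is unknown, so levels are compared between libraries. Where genes are sorted by a filter or by a mean of 0.5, this is by the listed value alone.

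A pseudogene is a copy of a gene that has lost the ability to make the gene's protein. A processed pseudogene arises when a messenger RNA is copied back into DNA and inserted elsewhere, so it has no introns, usually has no promoter of its own and is transcribed only where it lands next to an active one. An unprocessed pseudogene arises when a stretch of the genome is duplicated and keeps the intron structure. Because highly expressed genes leave many such copies, ribosomal protein genes have large families of processed pseudogenes. Short reads from a parent gene can be assigned to a near-identical pseudogene and the reverse, and how the authors treated reads that match several places is not given in the sources used here.

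Of the 140 pseudogenes, 95 are typed as processed, 8 as transcribed processed, 14 as unprocessed and 20 as transcribed unprocessed. The other 3, OGFRP1, DNM1P41 and DNM1P35, have another type in GENCODE (lincRNA, TEC and antisense), while RefSeq types all 3 as transcribed pseudogenes. A parent gene is named for 139 of them, which come from 112 different parents. AGAP11 fits the pattern by its letters alone and has no parent here. Identity in the best local alignment to the parent's protein-coding transcripts had a median of 91.0% over the 138 that could be aligned. It ranged from 65.7% to 100% and was at least 99% in 8. The aligned part can be short, and in GTF2IP13 it was 1.1% of the transcript. To describe how far reads could be told apart, each pseudogene's longest GENCODE transcript was cut into every window of 50 bases. The share of windows that also occur exactly in a transcript of another gene was counted. A window counted as shared when it or its complementary sequence occurred there, so genes overlapping on the opposite strand count too. In 20 pseudogenes no window was shared, and in 54 at least 50% were shared.

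The sequences of the pseudogenes on which the results turn show both ends of this range. They are GENCODE 29 transcripts on GRCh38, written 5′ to 3′. MLLT10P2 (chr4:189973599-189973847, minus strand) is a processed copy of a stretch of the coding sequence of MLLT10, a chromatin-associated gene known as a fusion partner of KMT2A in leukaemia. It is shown whole beside the stretch of MLLT10 it aligns to, without a gap, and capitals mark the 33 bases that differ.
MLLT10P2: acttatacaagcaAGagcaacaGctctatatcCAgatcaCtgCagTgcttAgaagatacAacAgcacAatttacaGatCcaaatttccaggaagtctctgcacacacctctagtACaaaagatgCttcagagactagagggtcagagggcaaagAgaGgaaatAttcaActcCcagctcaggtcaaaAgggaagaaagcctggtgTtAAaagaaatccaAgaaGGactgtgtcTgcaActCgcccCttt
MLLT10: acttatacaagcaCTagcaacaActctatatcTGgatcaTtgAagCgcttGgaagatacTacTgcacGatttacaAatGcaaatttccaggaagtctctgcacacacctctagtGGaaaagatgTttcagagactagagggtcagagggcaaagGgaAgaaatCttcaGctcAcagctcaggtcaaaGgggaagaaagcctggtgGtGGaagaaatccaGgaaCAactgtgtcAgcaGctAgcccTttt
No 50-base window of MLLT10P2 occurs in another gene's transcripts. RPL22P1 (chr3:169483671-169484080, minus strand, within an intron of MECOM) is a copy of RPL22, a protein of the large ribosomal subunit. It aligned to RPL22 over 357 columns with 0 mismatches, and within these the difference is 7 bases that RPL22P1 lacks. The stretch around them is shown, with the 7 bases in capitals in RPL22.
RPL22P1: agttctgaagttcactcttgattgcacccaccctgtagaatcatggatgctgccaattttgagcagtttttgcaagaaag
RPL22: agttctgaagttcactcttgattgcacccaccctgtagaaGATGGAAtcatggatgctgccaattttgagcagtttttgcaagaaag
In RPL22P1 70.6% of the windows also occur in RPL22. UQCRFS1P1 (chr22:39875289-39876108, plus strand, within ENTHD1 on the opposite strand) is a copy of UQCRFS1, the Rieske iron-sulfur subunit of respiratory complex III. It differs from UQCRFS1 by 9 bases in 813 columns, and a stretch with 3 of them in capitals is shown beside the parent.
UQCRFS1P1: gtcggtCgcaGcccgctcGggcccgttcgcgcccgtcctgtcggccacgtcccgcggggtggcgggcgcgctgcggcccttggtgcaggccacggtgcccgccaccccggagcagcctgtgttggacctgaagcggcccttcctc
UQCRFS1: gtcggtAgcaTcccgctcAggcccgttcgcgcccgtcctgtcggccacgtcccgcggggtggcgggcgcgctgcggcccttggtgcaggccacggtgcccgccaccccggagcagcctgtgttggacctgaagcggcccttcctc
PSMC1P5 (chr5:107195156-107195332, plus strand) is a fragment of PSMC1, an ATPase subunit of the proteasome. Its first 175 bases are identical to PSMC1, and capitals mark the 2 bases beyond.
PSMC1P5: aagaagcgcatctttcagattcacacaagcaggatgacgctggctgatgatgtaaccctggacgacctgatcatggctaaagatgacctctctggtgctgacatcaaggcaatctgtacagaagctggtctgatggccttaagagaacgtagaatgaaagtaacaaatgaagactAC
HMGN2P5 (chr15:29730713-29730985, plus strand) is a copy of the coding sequence of HMGN2, a nucleosome-binding protein, and capitals mark its 1 base that differs.
HMGN2P5: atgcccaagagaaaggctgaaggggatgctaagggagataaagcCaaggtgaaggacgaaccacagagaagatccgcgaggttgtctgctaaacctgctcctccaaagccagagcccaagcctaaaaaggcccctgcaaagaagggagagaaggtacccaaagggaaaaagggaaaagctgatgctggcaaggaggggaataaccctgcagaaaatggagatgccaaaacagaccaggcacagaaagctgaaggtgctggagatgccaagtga
RAB43P1 (chr16:46626404-46626992, minus strand) is a copy of RAB43, a small GTPase of membrane traffic, with 1 differing base in 582 columns, here in capitals within its surroundings.
RAB43P1: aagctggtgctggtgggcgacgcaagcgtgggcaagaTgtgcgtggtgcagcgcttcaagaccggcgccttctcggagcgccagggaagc
The windows of PSMC1P5, HMGN2P5 and RAB43P1 were shared to 98.4%, 100% and 91.7%.

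Pseudogenes were listed as higher with the extract more often than as lower. In bulk RNA fewer cells with a transcript and less of it per cell cannot be told apart. The authors' deposited table gives 85 as higher and 55 as lower, so 60.7% were higher, against 43.6% of all listed genes. In each control library 65 to 75 of the 140 pseudogenes had a value above 0 (46.4% to 53.6%), and in each extract library 82 to 91 did (58.6% to 65.0%), so the groups did not overlap. For the other 1810 listed genes the shares were 81.2% to 81.9% in control and 80.6% to 81.9% in extract libraries, which do overlap. The pseudogenes had lower values (median 0.184, against 0.634 for the other listed genes), and shares at equal level were not taken. All of these genes were selected for a difference, so the counts describe the list and not the transcriptome.

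Many of the pseudogenes were listed at 0 throughout a group. In 48 pseudogenes every control library was listed at 0, and in 24 every extract library was. Together these are 51.4% of the pseudogenes, against 21.1% of all listed genes. The authors' deposited table gives an adjusted p under 0.05 to 26 of the 140 (18.6%), against 45.9% of all listed genes. Values of the 4 control and 4 extract libraries did not overlap in 35 pseudogenes (25.0%), against 41.9% of all listed genes. The share listed as higher was larger among the low values: of 97 pseudogenes with a mean under 0.5, 67.0% were higher with the extract, against 49.0% of the 826 other listed genes with such a mean. Of 43 with a mean of at least 0.5, 46.5% were higher, against 36.6% of 984 other listed genes. How far the low values set this direction was not tested.

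By kind, 58 of the 95 processed pseudogenes and 12 of the 14 unprocessed ones were listed as higher. The transcribed unprocessed pseudogenes were divided as 9 higher and 11 lower, and the 8 transcribed processed ones as 3 higher and 5 lower. The 3 with another type were all higher. In the plot of group means the processed pseudogenes span the whole range of levels, and the column of points at the left edge holds those with every control library at 0.

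**Figure D1:**
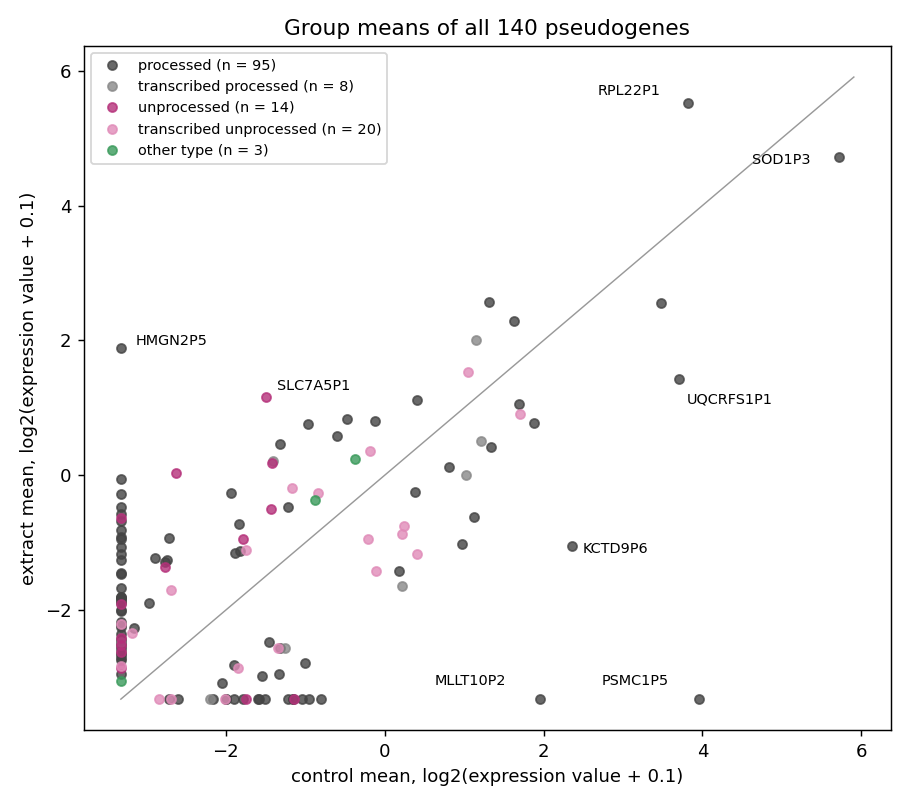
Mean expression value of each of the 140 pseudogenes in the 4 control libraries (x) and the 4 extract libraries (y), both as log2(value + 0.1), coloured by GENCODE type, with the line of equal means. The 48 pseudogenes at 0 in every control library lie along the left edge and the 24 at 0 in every extract library along the bottom.

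Among the pseudogenes with enough signal for a test, 17 changed, 7 upwards and 10 downwards. The test was limma on log2(value + 1) over the 750 listed genes that reached 1 in 4 or more libraries, with Benjamini-Hochberg adjustment over all 750. Of the 140 pseudogenes 24 passed this filter. The 17 called at an adjusted p under 0.05 are 70.8% of them, against 82.8% of all 750 genes. The 7 higher are 29.2%, against 26.8%, and the 10 lower are 41.7%, against 56.0%. The median log2 change was -0.42 over the 24 and -0.50 over the 750. These shares are near or below the background, and the genes were selected for their difference, so the calls say only which pseudogenes differed beyond the spread of the libraries. The median of all tested genes was lower by 0.27 on the log2 scale with the extract, and after centring each library on its median the calls divided as 9 higher and 5 lower. MLLT10P2, GTF2IP13 and CDPF1P1 reached the filter through 1 group only, so for them a difference was built into the filter. Among the called ones PRPS1P2, KCTD9P6, RPL32P15 and RPL23AP45 had only 1 library of the lower group at 1 or more. They too passed mainly through their higher group.

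**Figure D2:**
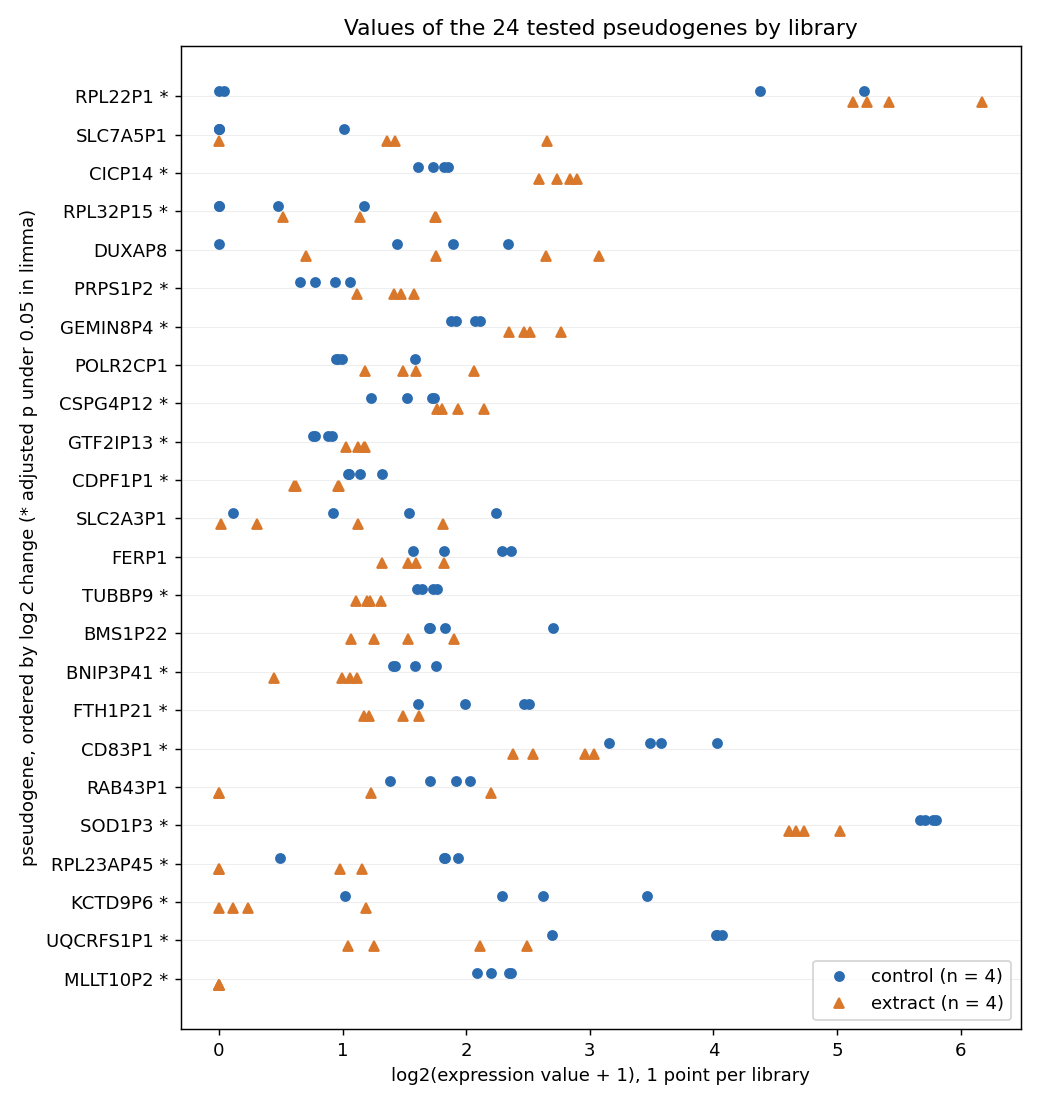
Values of the 24 tested pseudogenes in each library as log2(value + 1), with circles for the 4 control and triangles for the 4 extract libraries, ordered by the fitted change. An asterisk marks the 17 with an adjusted p under 0.05 in limma, and the groups stand apart in 12 of the 24 (50%, against 67.7% of all 750 tested genes).

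MLLT10P2 was seen in every control library and in no extract library. Its values were 4.09, 4.15, 3.25 and 3.60 in control 2 to 5, and it was listed at 0 in extract 1 to 4. The limma adjusted p was 3.60e-07, and no fold is given because a group is at 0. MLLT10P2 reached the filter through the control group only, so a difference was built into the filter and the p-value is no independent evidence. The authors' deposited table gives it an adjusted p of 0.0880 with a log2 fold change of -4.06. Its parent MLLT10 is not among the listed genes.

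SOD1P3 fell to about the same level in every extract library. It is a processed copy of SOD1, the cytosolic superoxide dismutase, on chromosome 8 at 125951861 to 125952314. Control 2 to 5 gave 51.47, 49.92, 53.72 and 54.57, and extract 1 to 4 gave 24.44, 31.56, 25.51 and 23.44. The groups were far apart compared with their spread, with a log2 change of -0.98 ± 0.09 (SE, n = 4 per group, limma adjusted p = 4.39e-05). No 50-base window of SOD1P3 occurs in another gene's transcripts, although it is 84.9% identical to SOD1 where they align.

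UQCRFS1P1 was lower in all 4 extract libraries, and 1 control library lay near them. Its values were 15.79, 15.23, 15.32 and 5.48 in control 2 to 5 and 3.32, 4.63, 1.38 and 1.06 in extract 1 to 4. The log2 change was -1.98 ± 0.42 (SE, n = 4 per group, limma adjusted p = 0.00350). Control 5 stood apart from the other controls and still above the highest extract library. In UQCRFS1P1 61.0% of the windows occur in UQCRFS1 transcripts.

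KCTD9P6, a copy of a gene for a potassium-channel-domain adaptor protein, had control values of 1.03, 10.03, 5.15 and 3.90. Its extract values were 0.08, 1.28, 0 and 0.18. The groups overlapped, since extract 2 lay above control 2, and the log2 change was -1.96 ± 0.50 (SE, n = 4 per group, limma adjusted p = 0.00808). The controls alone ranged from 1.03 to 10.03, a wider range than in the pseudogenes described next.

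CD83P1, FTH1P21, BNIP3P41 and TUBBP9 share no 50-base window with another gene and fell by less. CD83P1, a copy of the gene for a surface protein of mature dendritic cells and activated lymphocytes, was at 10.21, 7.92, 10.95 and 15.29 in control and 7.20, 6.77, 4.19 and 4.83 in extract libraries. All its extract values lay below all its control values, and the log2 change was -0.83 ± 0.21 (SE, n = 4 per group, limma adjusted p = 0.00803). FTH1P21, a copy of the ferritin heavy chain gene, gave 2.05, 4.53, 2.98 and 4.70 in control and 1.25, 1.81, 2.07 and 1.32 in extract libraries. Its groups met at 2.05 and 2.07, with a log2 change of -0.77 ± 0.22 (SE, n = 4 per group, limma adjusted p = 0.0126).

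BNIP3P41, a copy of a gene for a mitophagy receptor, gave 1.69, 2.01, 1.66 and 2.38 in control and 0.99, 1.17, 1.08 and 0.36 in extract libraries. TUBBP9, a transcribed copy of a beta-tubulin gene, gave 2.12, 2.32, 2.39 and 2.03 in control and 1.30, 1.33, 1.16 and 1.48 in extract libraries. Both had groups that did not overlap. Their log2 changes were -0.64 ± 0.17 (SE, n = 4 per group, limma adjusted p = 0.00847) and -0.47 ± 0.09 (SE, n = 4 per group, limma adjusted p = 0.00183). After centring each library on its median FTH1P21, BNIP3P41 and TUBBP9 were no longer called.

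The remaining falls were close to the threshold. RPL23AP45, a copy of a gene of the large ribosomal subunit, gave 2.54, 0.41, 2.56 and 2.83 in control and 0, 0.97, 0 and 1.23 in extract libraries. Control 3 lay below 2 of the extract libraries (limma adjusted p = 0.0480), and the call was lost in 5 of the 8 fits that left out 1 library. CDPF1P1 gave 1.07, 1.49, 1.20 and 1.06 in control and 0.54, 0.96, 0.95 and 0.52 in extract libraries. Its groups did not overlap, its limma adjusted p was 0.0321, and it was lost in 4 of those 8 fits. It reached the filter through the control group only, so a difference was built into the filter. RPL23AP45 and CDPF1P1 were also no longer called after centring each library on its median or after quantile normalization. CDPF1P1 shares exon bases with CLHC1 on the opposite strand, and whether the counting used strand is not given in the sources used here.

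CICP14 rose in every extract library. It is a copy of CIC, the capicua transcriptional repressor, at chr7:128655962-128658791, and belongs to a family of such copies. Its values were 2.33, 2.06, 2.53 and 2.61 in control 2 to 5 and 6.43, 5.67, 6.15 and 5.02 in extract 1 to 4. All extract values lay well above all control values, and the log2 change was 1.01 ± 0.10 (SE, n = 4 per group, limma adjusted p = 7.89e-05). In CICP14 70.1% of the windows occur in other genes' transcripts, most of them in CICP6, so reads from these parts cannot be told apart from those of other copies.

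GEMIN8P4 and PRPS1P2 also rose, with little shared sequence (1.0% and 4.4% of windows). GEMIN8P4 copies a gene of the SMN complex that assembles spliceosomal particles, and gave 3.33, 2.67, 3.21 and 2.77 in control and 4.52, 4.09, 4.72 and 5.80 in extract libraries. PRPS1P2 copies the gene of a phosphoribosyl pyrophosphate synthetase, which supplies nucleotide synthesis, and gave 0.71, 0.92, 1.08 and 0.58 in control and 1.78, 1.67, 1.99 and 1.17 in extract libraries. The groups of both stood apart. Their log2 changes were 0.53 ± 0.11 (SE, n = 4 per group, limma adjusted p = 0.00373) and 0.54 ± 0.13 (SE, n = 4 per group, limma adjusted p = 0.00719). The authors' deposited table gives these 2 adjusted p-values of 0.0600 and 0.0661.

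GTF2IP13 and CSPG4P12 are duplicated copies that are transcribed. GTF2IP13, from the gene of the transcription factor TFII-I, gave 0.88, 0.69, 0.71 and 0.84 in control and 1.26, 1.18, 1.04 and 1.27 in extract libraries (log2 change 0.30 ± 0.08, SE, n = 4 per group, limma adjusted p = 0.0124). It reached the filter through the extract group only, so a difference was built into the filter. CSPG4P12, from the gene of a chondroitin sulfate proteoglycan, gave 2.34, 1.35, 2.31 and 1.87 in control and 2.49, 3.43, 2.82 and 2.40 in extract libraries. Its groups were separated by the step from 2.34 to 2.40 (limma adjusted p = 0.0477), and 6 of the 8 fits without 1 library lost the call. CSPG4P12 shares exon bases with AC044860.1 and RN7SL428P on the opposite strand, and 35.8% of its windows occur in other genes' transcripts.

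RPL22P1 and RPL32P15, the 2 ribosomal protein pseudogenes called as higher, swung between libraries. RPL22P1 gave 36.24, 0, 0.03 and 19.80 in control 2 to 5 and 71.24, 34.06, 36.82 and 41.85 in extract 1 to 4. Control 2 lay above extract 2, and controls 3 and 4 were at or next to 0, with a limma adjusted p of 0.0428 that was lost in 6 of the 8 fits without 1 library. The authors' deposited table gives it an adjusted p of 4.91e-24. RPL32P15 gave 1.26, 0, 0 and 0.39 in control and 2.36, 0.43, 2.37 and 1.21 in extract libraries. Its groups overlapped as well (limma adjusted p = 0.0466, lost in 6 of the 8 fits).

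For 7 tested pseudogenes no change passed the test, and 5 of them were called in at least 1 alternative. SLC7A5P1, from the gene of a large neutral amino acid transporter, gave 0, 0, 0 and 1.02 in control and 1.69, 0, 1.56 and 5.28 in extract libraries (limma adjusted p = 0.0760). DUXAP8, from a double homeobox gene, gave 0, 2.71, 1.72 and 4.07 in control and 2.38, 5.26, 0.63 and 7.44 in extract libraries (limma adjusted p = 0.361). In both, libraries of 1 group ranged from 0 or near it to the group's highest value. POLR2CP1, a copy of a gene of an RNA polymerase subunit, gave 0.95, 0.99, 0.93 and 2.01 in control and 3.18, 2.02, 1.27 and 1.80 in extract libraries (limma adjusted p = 0.0790). BMS1P22, from a gene of ribosome assembly, gave 5.51, 2.27, 2.56 and 2.25 in control and 2.73, 1.89, 1.38 and 1.10 in extract libraries (limma adjusted p = 0.0851). FERP1, a copy of a tyrosine kinase gene, gave 3.88, 4.13, 2.54 and 1.97 in control and 1.89, 2.54, 2.02 and 1.49 in extract libraries (limma adjusted p = 0.0649). All 3 had overlapping groups. POLR2CP1 was called as higher after median centring (limma adjusted p = 0.0179), after quantile normalization, and without extract 3 or control 5, and SLC7A5P1 after median centring or without extract 2 (limma adjusted p = 0.0113). BMS1P22 was called as lower without extract 1 (limma adjusted p = 0.0487) and FERP1 without control 5 (limma adjusted p = 0.0199). DUXAP8 was called in none of the alternatives run. FERP1 shares exon bases with THOC2 on the opposite strand, and 75.7% of its windows occur in THOC2 transcripts as the complementary sequence. SLC2A3P1 and RAB43P1 are described with their parents.

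The largest swings between libraries of 1 group were found in pseudogenes that share most of their sequence. PSMC1P5 gave 0.44, 32.67, 0 and 28.57 in control 2 to 5 and was listed at 0 in all 4 extract libraries. It missed the filter because only 2 libraries held a value of at least 1, and the exact two-sided permutation test gave p = 0.143. HMGN2P5 was listed at 0 in 7 libraries and at 14.37 in extract 4. In the authors' deposited table it is higher with an adjusted p of 0.0206, while the exact permutation test gave p = 1. The plot of 6 pseudogenes by library sets these next to SOD1P3 and MLLT10P2, whose libraries lie close together within each group.

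**Figure D3:**
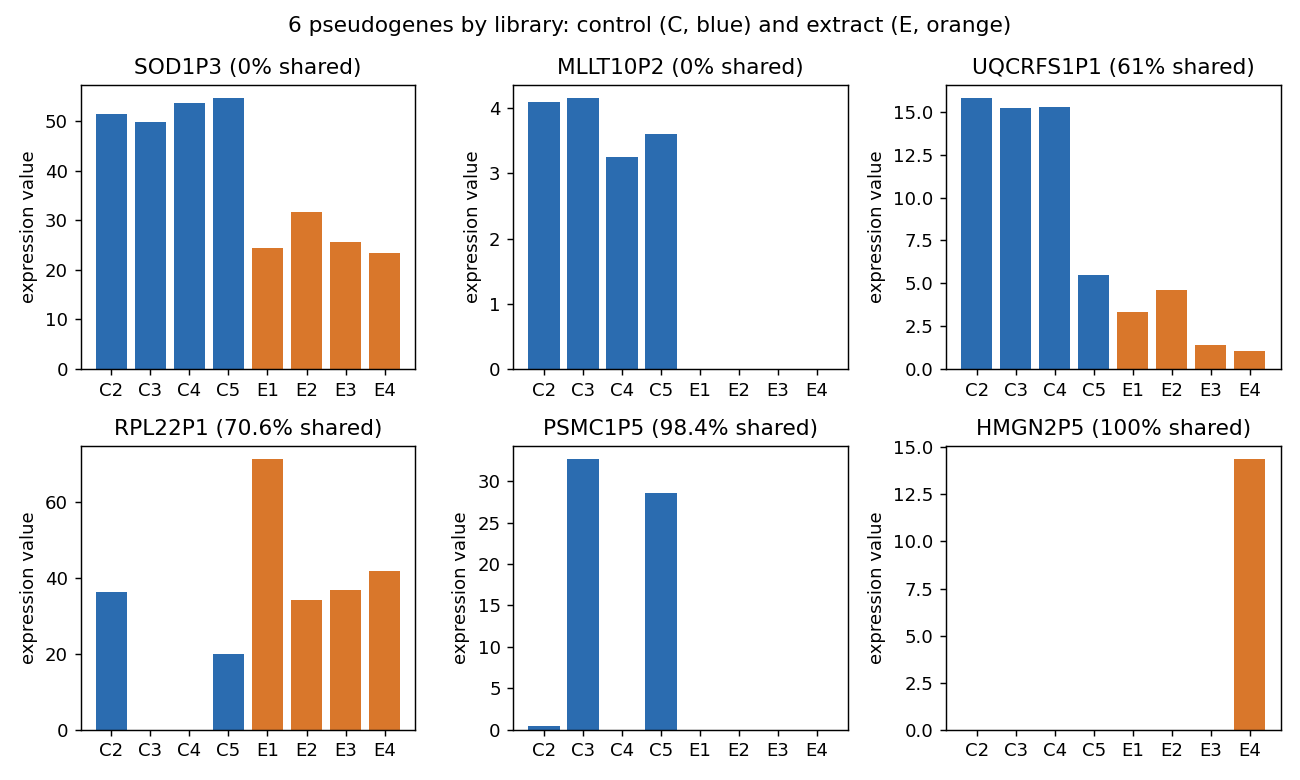
Expression value (no stated unit) of 6 pseudogenes in control libraries 2 to 5 (C2 to C5) and extract libraries 1 to 4 (E1 to E4), each panel with its own scale from 0 and the share of 50-base windows found in other genes. SOD1P3 and MLLT10P2 separate the groups, whereas RPL22P1, PSMC1P5 and HMGN2P5 pass between 0 and high values within a group.

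The spread within groups was set beside the shared sequence for the 43 pseudogenes with a mean of at least 0.5 or a place in the test. Of these, 16 share under 10% of their windows, and their SD within groups on the log2(value + 1) scale had a median of 0.193 (range 0.079 to 0.573). The 9 that share 10% to under 50% had a median SD of 0.263. The 18 that share at least 50% had a median SD of 0.487 (range 0.121 to 1.99). A group that held both 0 and a value above 0 was found in 1 of the 16, 4 of the 9 and 10 of the 18. Calls by limma were made for 10 of 11 tested, 3 of 4 tested and 4 of 9 tested, against 82.8% of all 750 tested genes. CICP14 was an exception with much shared sequence and little spread, and RPL32P15 was one in the other direction. The part of read assignment in this pattern was not tested.

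**Figure D4:**
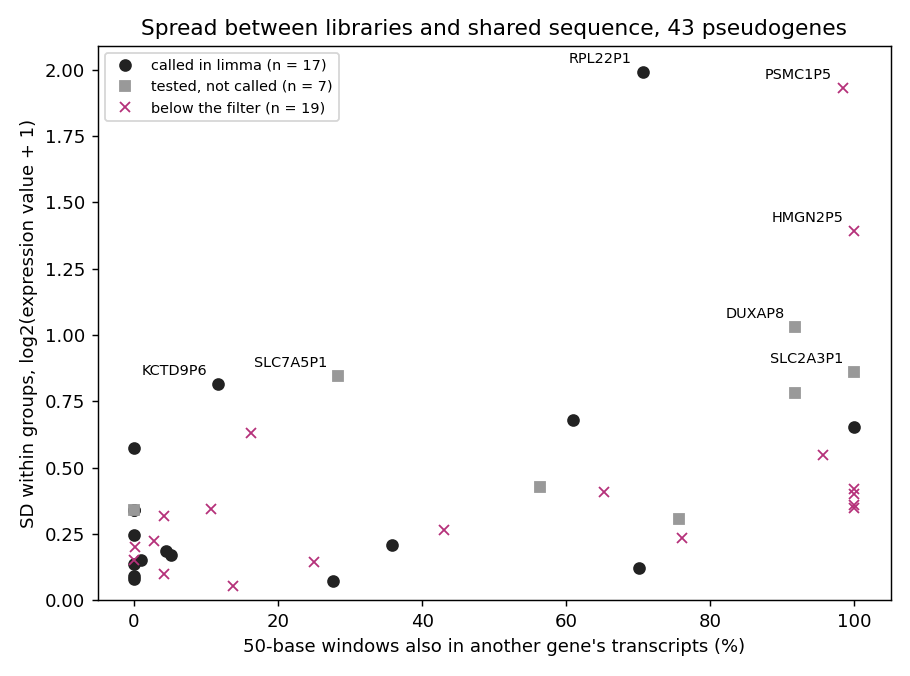
SD within groups on the log2(value + 1) scale against the percentage of 50-base windows also found in another gene's transcripts, for 43 pseudogenes. RPL22P1, PSMC1P5 and HMGN2P5, all with over 70% of windows shared, have the largest spread, while CICP14 at 70.1% has an SD of 0.121.

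Below the filter, 19 pseudogenes still had a mean of at least 0.5, and the smallest p that the exact test over 70 assignments can give is 0.0286. OGFRP1, whose GENCODE type is a long intergenic RNA and which lies within TCF20 on the opposite strand, gave 0.49, 0.49, 0.83 and 0.89 in control and 0.90, 1.29, 1.04 and 1.11 in extract libraries. SNX18P23, a copy of a sorting nexin gene, gave 0.36, 0.82, 0.38 and 0.68 in control and 1.92, 1.51, 1.24 and 0.91 in extract libraries, and 76.1% of its windows occur in other genes' transcripts. DNM1P47, from a dynamin gene, gave 0.38, 0.51, 0.50 and 0.45 in control and 0.81, 0.73, 0.70 and 0.70 in extract libraries. In these 3 every extract library lay above every control library (exact two-sided permutation p = 0.0286 each, not adjusted). DNM1P47 shares exon bases with GOLGA8VP and RN7SL209P on the opposite strand. Groups did not overlap in 23 of the 116 untested pseudogenes. The 41.9% over all listed genes includes the 750 tested ones at 67.7%, so a nearer comparison is by level. With a mean under 0.5, groups did not overlap in 17.5% of the 97 pseudogenes and 22.8% of the 826 other listed genes. The genes were selected on the same libraries, so these p-values only describe the separation.

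DPY19L2P3, RPSAP22 and RPL23AP1 were at the same smallest p on the lower side. DPY19L2P3 gave 0.75, 1.40, 1.03 and 1.15 in control and 0.48, 0.40, 0.56 and 0.54 in extract libraries. It shares exon bases with ZNRF2P2 on the opposite strand. RPSAP22, a copy of a gene for a laminin receptor that is also a ribosomal protein, gave 1.02, 0.63, 1.32 and 1.15 in control and 0.19, 0.40, 0.10 and 0.41 in extract libraries. RPL23AP1 gave 0.76, 2.24, 0.49 and 0.77 in control and 0.23, 0.23, 0.20 and 0.22 in extract libraries. All windows of RPL23AP1 lie in transcripts of HLA-F-AS1, on its own strand, or HLA-F, on the opposite strand. The share of each was not separated, and the values of RPL23AP1 may not be separate from those of these genes.

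In the other 13 of the 19 the groups overlapped. RPS2P55 gave 2.68, 1.45, 2.63 and 0.66 in control and 0.29, 0.30, 0.29 and 0.70 in extract libraries (exact permutation p = 0.0571), and the authors' deposited table gives it an adjusted p of 2.03e-05. ASNSP1, from an asparagine synthetase gene, gave 1.32, 0.83, 1.30 and 0.80 in control and 0.22, 0.31, 0.80 and 0.45 in extract libraries. UBE2Q2P2, from a gene of a ubiquitin-conjugating enzyme, gave 1.46, 0.83, 1.68 and 0.91 in control and 0.22, 0.93, 0 and 0.22 in extract libraries. These 3 had lower means with the extract, as did AGAP11 (means of 0.765 and 0.418) and ULK4P2. MTND6P22, a nuclear copy of a mitochondrial gene of complex I, gave 0.92, 0.72, 0.20 and 0.65 in control and 1.53, 2.10, 2.21 and 0.91 in extract libraries. ZRSR2P1, from a splicing factor gene, gave 0, 0.32, 0 and 0.79 in control and 1.16, 0.36, 1.64 and 1.05 in extract libraries, and all its windows lie in transcripts of SRP19 or REEP5, genes that share its locus. PMS2P10, FABP5P8, DNM1P41 and DNM1P51 had higher means with the extract and exact permutation p-values of 0.171, 0.257, 0.0571 and 0.0857. PSMC1P5 and HMGN2P5 make up the rest.

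Ribosomal protein pseudogenes were the biggest family, with 26 members, 17 listed as higher and 9 as lower. RPL names divided as 11 and 7, and RPS names as 6 and 2, against 43.6% higher over all listed genes. Of the 17 higher ones, 14 had every control library listed at 0. RPL13AP5 gave 1.10, 0, 0.60 and 0.58 in extract 1 to 4, RPSAP41 gave 0, 0.97, 0.17 and 0.23, and RPS20P4 gave 0.55, 1.23, 0 and 1.65, all with controls listed at 0. Among the lower ones RPL7AP65 gave 0.49, 0.26, 0.21 and 0.23 in control and 0, 0, 0.12 and 0 in extract libraries, and RPL4P6 gave 0.23, 0.24, 0.40 and 0.33 against 0.17, 0, 0.11 and 0. Copies of the same parent did not all go one way: RPSA had 3 copies higher and 1 lower. None of the parents of the 26 is among the listed genes.

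Of the smaller families with more than 1 member, 4 were listed in 1 direction only and the others were divided. All 4 copies of chaperone and folding genes were listed as lower: DNAJB12P1 gave 0.23, 0.47, 0.10 and 0.21 in control libraries, PPIAP51 gave 0.25, 0.26, 0.65 and 0.24, and both were listed at 0 in every extract library. PPIAP6 and HSPA5P1, a copy of the gene of the endoplasmic reticulum chaperone BiP, were the others. All 4 copies of ubiquitin and proteasome genes were lower as well, PSMC1P5, PSMD10P2, UBE2SP1 and UBE2Q2P2. All 3 copies of genes for chromatin proteins, HMGN2P5, HMGA1P3 and HMGB1P31, were higher, and so were the 3 nuclear copies of mitochondrial genes, MTND6P22, MTND6P3 and MTCO1P11. None of these 14 was tested, so these are directions in the authors' deposited table, where 43.6% of all listed genes are higher. Copies of translation factor genes, of RNA-processing genes and of transporter genes each divided as 2 higher and 2 lower. Copies of cytoskeleton genes divided as 2 higher and 1 lower, and the 2 of the ANKRD families found in segmental duplications as 1 and 1.

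Copies with the same name start were looked at after their values were seen. The 4 copies of CIC were all listed as higher: beside CICP14, CICP15 gave 0.19, 0.49, 0.20 and 0.44 in control and 0.34, 0.81, 0.46 and 0.88 in extract libraries, CICP16 gave 0.11, 0.18, 0.19 and 0.20 against 0.18, 0.26, 0.51 and 0.44, and CICP27 gave 0.22, 0.31, 0.20 and 0 against 0.36, 0.35, 0.50 and 0.23. In the 3 lower-valued copies the groups overlapped. The windows of these 4 copies were shared with other genes to 59.2% or more. The gene sharing most was CICP6 for CICP14, CICP7 for CICP15, CICP13 for CICP16 and CICP15 for CICP27 (60.1%). At least CICP15 and CICP27 are therefore not independent of each other, and sharing among the other copies was not separated.

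The 3 copies of CSPG4 and the 4 copies of the dynamin gene DNM1, all on chromosome 15, were listed as higher too. CSPG4P11 gave 0.10, 0.09, 0 and 0 in control and 0.40, 0.22, 0.40 and 0.13 in extract libraries, without overlap. CSPG4P5 gave 0.21, 0, 0.27 and 0.31 in control and 0.25, 0.13, 0.33 and 0.74 in extract libraries, and it shares exon bases on its own strand with DNM1P51, which gave 0.37, 0.39, 0.35 and 0.27 against 1.30, 1.01, 0.44 and 0.36. DNM1P41 gave 0.36, 0.39, 0.60 and 0.42 in control and 0.69, 0.74, 0.53 and 0.75 in extract libraries. Some of these copies are not independent of each other: 67.6% of the windows of CSPG4P11, 59.2% of those of CSPG4P5 and 25.0% of those of DNM1P51 occur in CSPG4P12. For DNM1P47, DNM1P41 and DNM1P35 the genes elsewhere sharing most windows were DNM1P46 (10.7%), GOLGA2P7 (2.1%) and LINC01226 (0.3%), none of them among these copies. In the other direction the 2 copies of GUSB, a lysosomal glucuronidase gene, were listed as lower, but each had at most 2 control libraries above 0. The 3 copies of BMS1 were divided, with BMS1P11 and BMS1P7 higher and BMS1P22 lower, as were those of RPSA above.

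For 4 pseudogenes the parent gene was itself listed, and each pair had the same direction. SLC2A3, the gene of a high-affinity glucose transporter, gave 45.80, 41.95, 41.84 and 43.60 in control and 22.85, 20.64, 20.86 and 20.86 in extract libraries. SLC2A3P1 gave 0.08, 3.74, 1.91 and 0.90 in control and 0.24, 2.52, 1.18 and 0.01 in extract libraries. The parent changed by a log2 of -0.99 ± 0.05 (SE, n = 4 per group, limma adjusted p = 2.08e-06), and the pseudogene's libraries overlapped throughout (limma adjusted p = 0.491). No 50-base window of SLC2A3P1 occurs in SLC2A3 transcripts. All of them lie in transcripts of PANK3, a pantothenate kinase gene that covers the pseudogene on the same strand and is not listed.

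RAB43 and RAB43P1 are nearly identical. RAB43 gave 3.25, 1.47, 1.51 and 3.64 in control and 1.18, 1.53, 2.40 and 1.22 in extract libraries. RAB43P1 gave 1.61, 2.77, 3.09 and 2.27 in control and 0, 0, 3.61 and 1.35 in extract libraries. In control libraries the 2 with the higher value for the parent, 2 and 5, had the lower values for the pseudogene. The extract libraries did not show this, since extract 3 had the highest value of both genes. Neither passed the test, with limma adjusted p-values of 0.176 for RAB43 and 0.109 for RAB43P1, and leaving out extract 3 gave RAB43P1 an adjusted p of 0.00924.

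ULK4, the gene of a kinase-like protein, gave 4.51, 4.45, 4.55 and 5.85 in control and 2.22, 1.82, 3.13 and 4.14 in extract libraries, a log2 change of -0.64 ± 0.19 (SE, n = 4 per group, limma adjusted p = 0.0159). ULK4P2 gave 0.95, 1.23, 0 and 1.14 in control and 0.24, 0.01, 0.44 and 0.41 in extract libraries (exact permutation p = 0.143). The parent's groups stood apart and those of the copy did not. All windows of ULK4P2 occur in other transcripts, foremost those of ULK4P1, and 2.3% occur in ULK4. AQP7, the gene of an aquaglyceroporin, gave 0.16, 0, 0.33 and 0.69 in control and 0.18, 0.61, 0.43 and 0.71 in extract libraries, and AQP7P4 was at 0 in every control library and at 0.07, 0, 0.07 and 0.16 in extract libraries.

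The 97 pseudogenes with a mean under 0.5 hold the largest fold changes in the authors' deposited table. The biggest rises there were SHLD2P3, RPSAP41 and RPL13AP5, with log2 fold changes of 4.95, 4.87 and 4.87. The biggest falls were VDAC2P5, DNAJB12P1 and GUSBP16, with -4.37, -4.24 and -4.24. SHLD2P3, from a gene of the shieldin complex of DNA repair, gave 0, 0.03, 0.11 and 0.21 in extract libraries and 0 in control. VDAC2P5, a copy of a gene of a mitochondrial outer-membrane channel, gave 0, 0.11, 0.28 and 0.53 in control and 0 in extract libraries. None of these 6 passed the filter for the test. An adjusted p under 0.05 is given in the authors' deposited table for 8 of the 97 (8.2%), against 19.2% of the 826 other listed genes with such a mean and 45.9% of all listed genes. BPTFP1, from the gene of a chromatin remodelling factor, is among them with 0.25, 0, 0 and 0 in control and 0, 0, 2.19 and 1.49 in extract libraries. CSPG4P11 was the one of the 8 whose groups did not overlap.

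With every library of a group at 0, the deposited fold changes did not follow the size of the values. Over the 48 pseudogenes at 0 in every control library, the authors' log2 fold change ran from 3.18 to 4.95, while the mean of the extract libraries ran from 0.02 to 3.59. Over the 24 at 0 in every extract library it ran from -4.37 to -3.20, while the control mean ran from 0.04 to 15.4. PSMC1P5, with the highest of those control means, had -3.93. In 29 of the 48 the value above 0 came from 1 or 2 extract libraries, and in 14 of the 24 from 1 or 2 control libraries. The authors' adjusted p was under 0.05 in 4 of the 48 and 1 of the 24, against 45.9% of all listed genes. Among the 826 other listed genes with a mean under 0.5 the share was 19.2%. The share among other listed genes with a group at 0 was not taken.

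More of the pseudogenes lay in or over another gene than stood alone. In GENCODE 29, 52 of the 140 overlap no other gene, and 53 overlap another gene, as its host or within it, without sharing exon bases. Another 18 share exon bases with a gene on the same strand and 17 only with one on the opposite strand. They lie on 23 chromosomes, with 14 on chromosome 5, 12 on chromosome 2 and 11 on chromosome 15. Overlap with a listed gene was found for 3 of them. Transcript lengths ran from 177 to 15043 bases with a median of 848, and 86 have 1 exon.

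The table holds too few of the genes that define the cells to check the label of the line: 1 of 12 erythroid and leukaemia markers is listed (HBZ), with 1 of 6 megakaryocyte, 2 of 6 monocyte and granulocyte, 2 of 4 lymphoid and 1 of 5 epithelial and fibroblast markers. Summed over the listed genes, the values came to 13114 to 14134 per library.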

How the data were processed

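RNA was measured in 8 K562 libraries, 4 with the extract and 4 without. HISAT2, StringTie and the build GRCh38 are named in the submitters' processing notes, without versions or roles; filters, strand and the handling of multiply mapped reads are not given in the sources used here. A single table was deposited by the authors, with an expression value per gene and library. Per the file headers its other columns give the authors' ratio of extract to control, the log2 of that ratio, and p-values before and after adjustment. The unit of the values is not named, there are no counts, and reads could not be recovered: of 167 ratios to a pseudogene's lowest value above 0, 34.1% were within 0.1 of a whole number, against 20.0% if spread evenly.

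Members and gene lists were chosen with earlier results of these data known. Names were matched to GENCODE 29 by gene ID (140 of 140, 123 with the same symbol), and positions are GENCODE's on GRCh38. Groups were compared by limma 3.58.1 (R 4.3.3), trend and robust settings on, over log2(value + 1), for genes at 1 or more in at least 4 of 8 libraries, over both groups without covariates. The code was tested on simulated data. Pseudogenes below that filter had an exact two-sided permutation test of the difference in means. Parents' transcripts were aligned with BLAST 2.17.0. Every tested pseudogene and every one with a mean of at least 0.5 is named, with the 3 largest rises and falls among the rest and every listed parent. Replicate numbers 2, 3 and 4 occur in both groups; deviations of same-numbered libraries correlated at 0.075, 0.075 and 0.149, so the numbers were not taken to pair the libraries. The alternatives were other pseudocounts, filters, scalings and adjustments, a replicate block and leaving out each library.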

Additional observations from a re-analysis of the deposited data

Results flagged for a closer look

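In 9 of 83 groups of 4 libraries, 1 library stood apart from the other 3 by Dixon's test at the 95% level, which chance alone gives in about 1 in 20 groups. The groups were those of the pseudogenes with a mean of at least 0.5 or a place in the test. High values stood apart for BMS1P22 in control 2 (5.51, the others at 2.25 to 2.56), POLR2CP1 in control 5 (2.01, the others at 0.93 to 0.99), RPL23AP1 in control 3 (2.24, the others at 0.49 to 0.77) and SLC7A5P1 in control 5 (1.02, the others at 0). They also did for HMGN2P5 in extract 4 (14.37, the others at 0), KCTD9P6 in extract 2 (1.28, the others at 0 to 0.18) and RPS2P55 in extract 4 (0.70, the others at 0.29 to 0.30). Low values stood apart for RPL23AP45 in control 3 (0.41, the others at 2.54 to 2.83) and UQCRFS1P1 in control 5 (5.48, the others at 15.23 to 15.79). For HMGN2P5 and SLC7A5P1, with 3 libraries at 0, any value in the fourth would have stood apart, so 7 groups bear on the chance rate. UQCRFS1P1 and KCTD9P6 were called in every fit that left out 1 library.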

How the results depend on the processing

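The 17 calls among the pseudogenes (7 higher, 10 lower) became 43 (21 and 22) with no filter and 27 (12 and 15) with the filter at 0.5, where more genes were tested. Adjusted over 60664 genes, the number that the deposited adjusted p-values imply, they became 3 (1 and 2), and the 621 calls over all tested genes (201 and 420) became 167 (45 and 122). With no filter 314 of all genes were called higher. Median centring gave 9 higher and 5 lower pseudogenes and 241 lower genes in all, and quantile normalization gave 8, 7 and 251. A pseudocount of 0.1 gave 4 higher pseudogenes. Leaving out 1 library gave 13 to 16 calls, 4 to 7 higher and 8 to 10 lower, and 538 to 584 over all genes. Of the 17 called pseudogenes, 12 were called in each of the 8 fits without 1 library, and CICP14, MLLT10P2 and SOD1P3 in each of the 17 alternatives. MLLT10P2 had reached the filter through 1 group only. RPL22P1, RPL32P15, CSPG4P12, RPL23AP45 and CDPF1P1 were lost in 4 to 6 of those 8 fits. No called pseudogene reversed its sign. The count of 85 higher pseudogenes was 83 to 85 without 1 library.

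A fit with the replicate number as a block, on libraries 2 to 4 of each group, gave 12 calls (3 higher, 9 lower). It called BMS1P22, FERP1 and POLR2CP1, which the fit on all libraries did not. The numbers were not shown to pair the libraries, and fewer libraries entered it.

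The unit and depth are unknown, so a value of 0 cannot be set against a detection limit. The table was selected on the same libraries, so no call is independent of that selection, and pseudogenes that did not differ are not analysed here.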
